A study of Mus musculus with 4 samples.

Results

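The group described here holds 10 genes: the lipocalin gene Lcn2, the serum amyloid A genes Saa1, Saa2, Saa3 and Saa4, the orosomucoid genes Orm1 and Orm2, the pentraxin genes Crp and Apcs, and the fibrinogen-like gene Fgl1. They were chosen by name, with earlier results of these libraries known, and all 10 were found among the 25793 symbols listed in each table. RNA sequencing covered 4 mouse liver libraries. Tumours 1 and 2 are labelled as liver tumours of mice heterozygous for beta-2 spectrin and for the TGF-beta signal transducer SMAD3. The third table is labelled normal liver of a mouse of that double heterozygous genotype, which the tumour mice share, and the fourth normal liver of a wild type mouse. No age, drug, time or tumour stage is given in the labels. The submitters' short descriptions name Tcell for both tumour libraries and hepatocytes for both normal ones. Whether the tumours are from different animals is not stated, so p-values measure only the spread between these libraries.

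Most of these genes encode acute-phase proteins, which hepatocytes secrete into plasma at changed rates during infection or injury. IL-1 and IL-6 drive that response through NF-kB, STAT3 and C/EBP transcription factors. Lcn2 binds bacterial siderophores and withholds iron, and is also made by neutrophils and stressed epithelia. Saa1 and Saa2 are inducible apolipoproteins of the hepatocyte, Saa4 is a constitutive one, and Saa3 is known for expression outside the hepatocyte, in macrophages and epithelia. In the mouse the main acute-phase pentraxin is serum amyloid P, the product of Apcs, rather than C-reactive protein.

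Gene counts per library ran from 11049931 in tumour 1 to 18448621 in the table labelled wild type. More counts were identical between the normal tables than between the tumours. Among genes averaging 1 to 5 counts, the normal tables held the same number for 56.8% of 2632 and the tumours for 13.1% of 2299. For that reason the normal tables entered the fit as 1 library, their rounded mean, and the values of each are given below as a description. They may hold reads of the same library, which was not tested further. Levels are CPM, reads of a gene relative to all gene reads of its library, scaled by TMM, a method that sets libraries to a common scale from the bulk of their genes. Hepatocyte markers were low in the tumours, with a summed level over 10 genes of 1600 and 262 CPM in tumours 1 and 2 against 224000 and 201000 CPM in the normal tables. Endothelial markers summed to 0.57 and 1.33 CPM against 238 and 224 CPM over 8 genes. Of 10 T and B cell markers, 9 were at 0 counts in both tumours, the exception being Ptprc with 35 and 2 counts. In bulk RNA, fewer cells of a type and less RNA per cell cannot be told apart.

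The upstream sequences of Lcn2 and of the 4 serum amyloid A genes are shown because they include the members that were high and neighbours of them that were low in the tumours. They come from RefSeq (GRCm38.p6), where 8 of the 10 members matched. The counts were made on mm9 per the submitters' processing notes, so these positions locate the sequences only. Each line opens 250 bases before the RefSeq start and ends before the first coding transcript start annotated there in the GENCODE basic set. The windows are chr2:32387798-32387989 (minus strand) for Lcn2, chr7:46715701-46715926 (minus) for Saa3, chr7:46742981-46743230 (minus) for Saa1, chr7:46751583-46751789 (plus) for Saa2 and chr7:46732604-46732853 (minus) for Saa4. Capitals mark matches to the searched motifs.
Lcn2: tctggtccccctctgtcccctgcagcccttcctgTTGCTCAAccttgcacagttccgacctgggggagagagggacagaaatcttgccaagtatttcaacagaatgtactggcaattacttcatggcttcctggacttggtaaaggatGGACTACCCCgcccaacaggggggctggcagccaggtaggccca
Saa3: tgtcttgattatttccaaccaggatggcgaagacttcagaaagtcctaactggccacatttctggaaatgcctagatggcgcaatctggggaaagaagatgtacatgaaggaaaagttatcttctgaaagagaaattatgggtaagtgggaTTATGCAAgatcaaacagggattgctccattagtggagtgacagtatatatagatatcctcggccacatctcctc
Saa1: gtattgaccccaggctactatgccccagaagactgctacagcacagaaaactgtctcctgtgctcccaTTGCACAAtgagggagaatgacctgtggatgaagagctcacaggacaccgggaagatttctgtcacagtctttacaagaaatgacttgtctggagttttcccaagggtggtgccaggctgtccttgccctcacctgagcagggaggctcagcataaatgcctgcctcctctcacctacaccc
Saa2: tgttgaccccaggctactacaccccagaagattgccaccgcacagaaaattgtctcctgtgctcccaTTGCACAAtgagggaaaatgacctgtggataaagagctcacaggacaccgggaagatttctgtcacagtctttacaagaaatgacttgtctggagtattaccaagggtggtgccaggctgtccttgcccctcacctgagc
Saa4: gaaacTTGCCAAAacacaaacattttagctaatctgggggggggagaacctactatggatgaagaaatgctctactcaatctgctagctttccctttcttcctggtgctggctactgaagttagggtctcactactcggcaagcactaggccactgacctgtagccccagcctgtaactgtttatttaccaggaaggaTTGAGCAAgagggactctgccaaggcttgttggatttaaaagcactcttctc

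Searches used 4 motifs on both strands of the whole 250 bases. The C/EBP letters TTGCNNAA occurred in 6 of the 8 member windows, those of Lcn2, Saa1, Saa2, Saa3, Saa4 and Orm2, against 9.56% of all 32851 promoter windows. The NF-kB motif, GGG, any 4 bases and TCC, occurred in 1, that of Lcn2 (bases 102 to 93 before the start), against 16.5% of windows. The STAT letters TTCNNNGAA occurred in 1, that of Apcs, against 7.02%. The bases after the RefSeq start of Apcs were not found in its principal coding transcript, so the place of this match is uncertain. The HNF1 motif, GTTAAT, any base and ATT, was in no member window and in 0.371% of all. No matches overlapped within a window. A C/EBP match therefore stood upstream of genes that were high and of genes that were low in the tumours. The full windows of Saa1 and Saa2 were identical at 238 of 249 aligned bases (95.6%), and the C/EBP match TTGCACAA lies at bases 182 to 175 in the former and 183 to 176 in the latter.

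Lcn2 was the most abundant member in both tumours per kilobase of transcript, at 1410 and 203 CPM, ahead of Saa3 at 1070 and 21.7. It had 22646 counts in tumour 1 and 4038 in tumour 2, against 72 (double heterozygous) and 81 (wild type) in normal liver. On the CPM scale these are 1292, 185, 7.46 and 6.91. Both tumours lay above both normal tables, an order that 41% of the 14468 genes tested showed. Relative to the mean normal table, Lcn2 was 182-fold higher in tumour 1 (95% counting interval 145 to 231) and 26.1-fold higher in tumour 2 (20.8 to 33.2). All intervals are exact and cover counting error only. The fitted log2 fold change over both tumours was 6.71 (SE 1.84), with the tumour mean at 738 ± 782 CPM (SD, n = 2). None of the exonic 31-mers of Lcn2 occurs in another annotated gene, so its counts are not split with a copy.

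**Figure D1:**
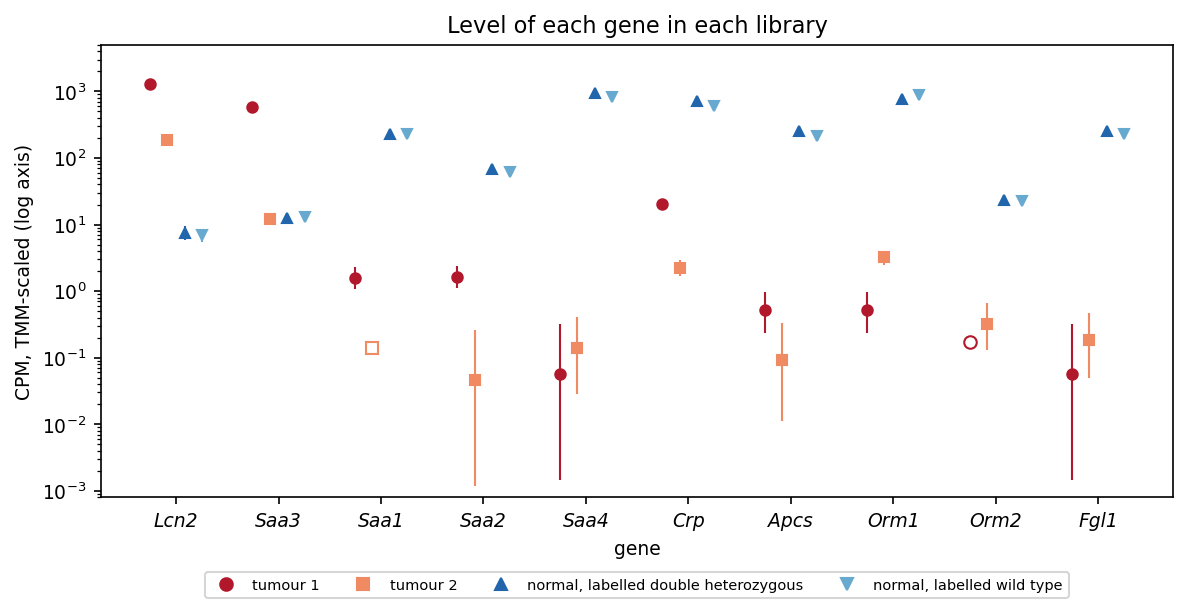
TMM-scaled CPM (log axis) of the 10 genes in the 4 libraries, with exact 95% counting intervals; open symbols stand at the floor of 3 counts for libraries at 0. Lcn2 lies above both normal tables in both tumours, Saa3 in tumour 1 alone, and the other 8 genes lie below both normal tables.

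Neutrophils store lipocalin 2 in their granules, so their markers were read beside Lcn2. Of 11 neutrophil markers, 6 were at 0 counts in both tumours, among them Ly6g, Mpo, Elane and Camp. Their summed level was 1.43 and 2.62 CPM in tumours 1 and 2 against 2.38 and 3.24 CPM in the normal tables. S100a8 was at 0.855 and 0.872 CPM in the tumours and Ltf at 0 and 0.964 CPM. The part of neutrophils in the Lcn2 level was not tested beyond these values. Bile duct markers, over 8 genes, summed to 2440 and 1940 CPM against 49.3 and 43.6 CPM. By edgeR 4 of the 8, Spp1, Krt19, Tspan8 and Krt7, were called higher, beside 2.23% of all genes. Spp1 alone gave 1290 and 1360 CPM of the tumour sums. Epcam and Cftr were above normal in tumour 1, at 20.3 and 26.6 CPM, and below it in tumour 2, at 0.184 CPM against 4.40 and 0.321 CPM against 1.45. The part of bile duct markers in the Lcn2 level was not tested.

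Genes with the profile closest to Lcn2 were Anxa13, Abcc4 and Akap12. The measure was the Euclidean distance of log2(CPM + 1), centred per gene, over the 4 tables and 9167 other genes with a mean of at least 10 CPM. Anxa13, which encodes an annexin of epithelia, had 6676, 1315, 15 and 18 counts in the order tumour 1, tumour 2, double heterozygous and wild type, at a distance of 0.13. The transporter gene Abcc4 had 14752, 3072, 31 and 42 (0.45), and the scaffold gene Akap12 13660, 1773, 52 and 48 (0.56).

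Among the serum amyloid A genes, only Saa3 reached high levels in a tumour library. It had 10392 counts in tumour 1 but 263 in tumour 2, against 120 and 151 in the normal tables. That is 593, 12.1, 12.4 and 12.9 CPM, so tumour 1 stood far above the normal range and tumour 2 just under it. Tumour 1 was 46.6-fold above the mean normal table (39.3 to 55.6), while the ratio in tumour 2 was 0.949 (0.768 to 1.18). The fitted log2 fold change of 4.58 (SE 2.59) rests on tumour 1. Without that library the log2 ratio was -0.07. Macrophages are a known source of Saa3, and some of their markers differed the same way between the tumours. Lyz2 had 644 and 19 counts in tumours 1 and 2, Marco 121 and 1, and Emr1 93 and 0, while Cd68 went the other way, with 30 and 65. The 9 macrophage and Kupffer cell markers summed to 53.2 and 4.96 CPM against 164 and 152 CPM in the normal tables, and 4 of them, Clec4f, Cd5l, Vsig4 and Timd4, were at 0 in both tumours. Their part in the Saa3 level was not tested.

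Saa1 and Saa2, the inducible forms, were low in the tumours. Saa1 had 28 counts in tumour 1 and 0 in tumour 2, against 2224 and 2682 in the normal tables. It was 144-fold lower in tumour 1 (99.2 to 217), and in tumour 2 its 0 counts lie under the floor of 3 counts, 0.138 CPM (exact 95% upper limit 0.169 CPM), against 230 and 229 CPM in normal liver. Saa2 had 29 and 1 counts against 666 and 716, which is 39.1-fold lower in tumour 1 (27.0 to 58.8). In tumour 2 its ratio to normal liver was 0.00071 (1.8e-05 to 0.00397). Saa1 and Saa2 share sequence, with 26.8% of the 31-mers of Saa1 also found in Saa2, so reads between them are uncertain. Alignments that were not unique are outside the counts, so both genes may be counted low, and a sum does not restore such reads. Summed, they had 57 and 1 counts against a normal mean of 3144, or 90.5-fold lower in tumour 1 (69.7 to 120).

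Saa4, the constitutive form, had the lowest fitted fold of the 10. It had 1 and 3 counts in tumours 1 and 2 against 9143 and 9725 in the normal tables. The ratio to the mean normal table was 6.46e-05 in tumour 1 (1.64e-06 to 0.00036) and 0.000156 in tumour 2 (3.22e-05 to 0.000456). The fitted log2 fold change was -13.00 (SE 0.93). Both tumours were below both normal tables, as were 37.5% of all genes tested.

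The make-up of the serum amyloid A counts was thus opposite in the tumour and normal libraries. Saa3 took 99.4% of the family's 10450 counts in tumour 1 (Clopper-Pearson 95% interval 99.3 to 99.6) and 98.5% of 267 counts in tumour 2 (96.2 to 99.6). In the normal tables it took 0.987% (0.819 to 1.18) of 12153 counts and 1.14% (0.964 to 1.33) of 13274. Saa4 took 75.2% and 73.3% there, and Saa1 18.3% and 20.2%. Tumour 2 shared this make-up with tumour 1 although its Saa3 level was not above normal, because its other family counts were near 0. Per kilobase of the principal coding transcript, normal liver held 452 and 396 CPM of Saa4, 378 and 376 of Saa1, 114 and 101 of Saa2 and 22.4 and 23.2 of Saa3. Saa4 and Saa1 are close per kilobase, where the Saa4 transcript has 2094 bases and that of Saa1 609. Of their 31-mers, 30.1% of those of Saa1 and 1.6% of those of Saa4 occur in another gene. Alignments that were not unique are outside these counts. Their part in this order and in the family shares was not tested, and the intervals do not cover it.

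**Figure D2:**
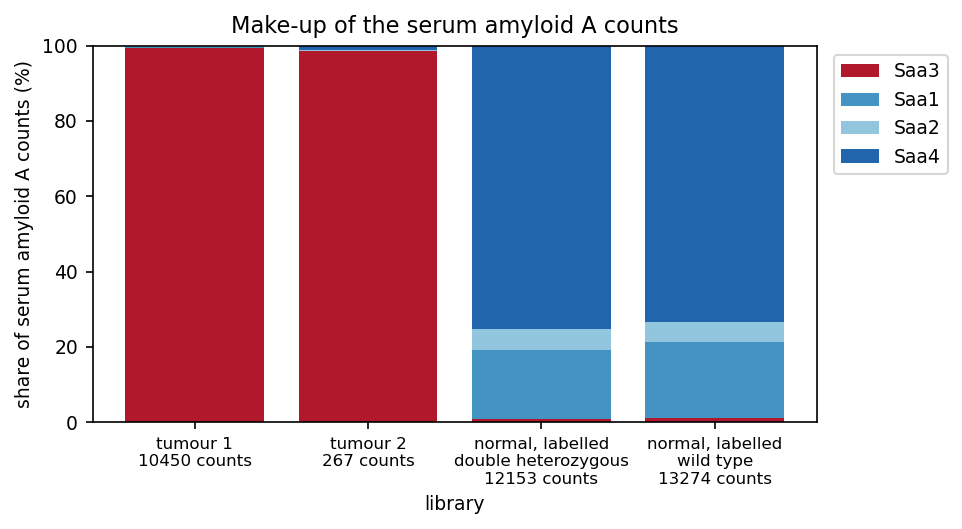
Share (%) of all serum amyloid A counts taken by each gene in each library, with the number of family counts under each bar. Saa3 makes up 99.4% and 98.5% in tumours 1 and 2 and about 1% in the normal tables, where Saa4 makes up 75.2% and 73.3%.

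The 4 serum amyloid A genes are neighbours on chromosome 7, in the order Saa3, Saa4, Saa1, Saa2 in the RefSeq annotation. The genes flanking this block, chosen by position, did not pass the edgeR test. Saal1, next to Saa3, had 236 and 382 counts in the tumours against 79 and 94 (adjusted p = 0.426). Hps5, next to Saa2, had 812 and 604 against 402 and 499 (0.871). The neighbours of Lcn2 were 1110008P14Rik, with 370 and 394 against 75 and 86 counts (edgeR adjusted p = 0.262), and Ptges2, with 514 and 487 against 245 and 272 (0.926). Beside low members, neighbours had counts in both directions. Fgl1 lies between Mtus1 (458 and 514 against 4532 and 5069) and Pcm1 (1977 and 3344 against 645 and 783). The orosomucoid genes lie between Col27a1 (116 and 771 against 1985 and 2216) and Akna (52 and 177 against 32 and 43).

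Both pentraxin genes were low in the tumours. Crp, whose product binds phosphocholine on microbes and dying cells, had 358 counts in tumour 1 and 49 in tumour 2 against 6919 and 7061. It was 32.0-fold lower in tumour 1 (28.8 to 35.7) and 291-fold lower in tumour 2 (220 to 393), with a fitted log2 fold change of -5.84 (SE 1.41). At 20.4 CPM Crp had the highest level in tumour 1 of the 8 members below normal, while in tumour 2 its 2.25 CPM lay under the 3.21 CPM of Orm1. Apcs, its neighbour on chromosome 1, had 9 and 2 counts against 2459 and 2531, at a log2 fold change of -9.59 (SE 1.11). It was 455-fold lower in tumour 1 (239 to 996), and its ratio in tumour 2 was 0.000393 (4.76e-05 to 0.00142). The long pentraxin gene Ptx3, made outside the hepatocyte, had 196 counts in tumour 2 and 0 in tumour 1 and in both normal tables (edgeR adjusted p = 0.335).

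The orosomucoid genes encode plasma carriers of basic drugs and belong to the lipocalin fold family. Orm1 had 9 and 70 counts in tumours 1 and 2 against 7508 and 10418, a log2 fold change of -8.80 (SE 1.33). It was 1630-fold lower in tumour 1 (860 to 3570) and 261-fold lower in tumour 2 (206 to 335). Orm2 had 0 and 7 counts against 223 and 269, and its ratio in tumour 2 was 71.6-fold lower (34.2 to 180). Orm3, which is not a member but shares the locus, was at 0 in both tumours against 116 and 247 counts, at least 111-fold lower at a floor of 3 counts per tumour library. Its call (edgeR adjusted p = 0.0484) was lost without the wild type table (0.0628) and without scaling (0.0691). Of the 31-mers of Orm1, 27.5% also occur in Orm2, so the split between these genes is uncertain and both may be counted low. The sum of Orm1, Orm2 and Orm3 as counted was 9 and 77 against a normal mean of 9390.

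Fgl1, a hepatocyte-secreted protein and ligand of the T cell receptor LAG-3, had 1 and 4 counts against 2454 and 2698. Its fitted log2 fold change was -10.83 (SE 0.86). The ratio to normal liver was 0.000237 in tumour 1 (5.99e-06 to 0.00132) and 0.000762 in tumour 2 (0.000207 to 0.00195). These counts are too few to order the tumours.

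**Figure D3:**
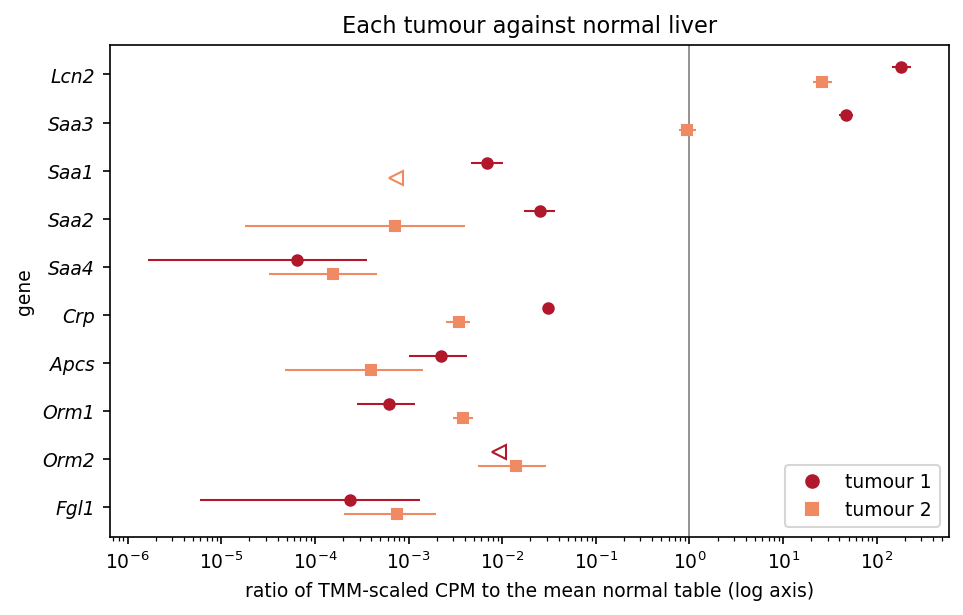
Ratio of TMM-scaled CPM in each tumour to the mean normal table (log axis) with exact 95% counting intervals; open triangles mark the upper interval limit where the tumour had 0 counts. Lcn2 lies to the right of 1 in both tumours, Saa3 in tumour 1 with tumour 2 at 0.949, and the other 8 genes to the left.

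All 10 members passed the filter on low counts, several of them through 1 group only. In the edgeR quasi-likelihood fit over all genes, 0 of the 10 were called higher, beside 2.23% of the 14468 genes tested, and 4 were called lower (Saa4, Orm1, Apcs and Fgl1), beside 5.19%. At an unadjusted p under 0.05, 1 was higher and 8 lower, a threshold at which all genes were not counted. DESeq2 called 2 higher and 7 lower, beside 1666 higher and 1743 lower of the 14468 genes. The median log2 fold change of the members was -7.61 and that of all genes 0.19. Since the members were chosen with this contrast known, nothing is read from these counts. The fit has 1 residual degree of freedom, from the tumours, and the single normal library is assumed to vary as they do.

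Between the tumours the members split. There is 1 library on each side, so no test was possible. Lcn2 was 6.97-fold higher in tumour 1 than in tumour 2 (6.74 to 7.21), Saa3 49.1-fold (43.4 to 55.7) and Crp 9.08-fold (6.72 to 12.5). These are the 3 members with at least 10 CPM in either tumour, Crp through tumour 1 alone (20.4 against 2.25 CPM). All 3 passed 4-fold, as did 2.95% of 9211 genes in that direction, while 0 of the 3 were as far below, beside 6.7%. Since the filter and the choice of members enter this count, nothing is read from it. Among the members at a few counts, Apcs was 5.59-fold higher in tumour 1 (1.16 to 53.2) and Saa1 and Saa2 summed had 57 against 1 counts, a ratio of 70.8 (12.2 to 2850). Orm1 went the other way, at 6.26-fold lower in tumour 1 (3.12 to 14.3). Saa4 and Fgl1 had too few counts to differ, with intervals of 0.00789 to 5.16 and 0.00631 to 3.14. Fibroblast and stellate cell markers also differed between the tumours, at 4.68 CPM in tumour 1 and 698 CPM in tumour 2 over 9 genes, with Col1a1 at 30 and 3757 counts. Their part was not tested.

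The normal tables gave similar levels of every member. None of the 9 members with at least 10 CPM there differed over 2-fold, against 4.45% of 8294 genes. The ratio of the table labelled double heterozygous to that labelled wild type ran from 0.875 (0.849 to 0.902) for Orm1 to 1.19 (1.15 to 1.23) for Crp. For Lcn2 it was 1.08 (0.775 to 1.5). Orm3 stood apart at 0.57 (0.453 to 0.714). The tables also differ in the share of alignments that were not unique, 51.5% and 30.7%, whose part in the Orm3 and Orm1 ratios was not tested. Since the tables may not be separate libraries, the comparison cannot show what the genotype changes.

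Other acute-phase genes, mostly of plasma proteins, followed the low members. Of 37 tested, 28 were called lower and 1 higher by edgeR, beside 5.19% and 2.23% of all genes. The median log2 fold change was -11.31 (-10.34 when genes with a group at 0 are set to their bound). The list also holds Ttr, Trf and Ahsg, classed as negative acute-phase genes. Mt1, Mt2 and Steap4, also listed, encode proteins that are not of plasma. Of these genes, all but Mt1 were among the lower calls. The hemoglobin scavenger gene Hp was at 18.5 and 9.73 CPM in the tumours against 6400 CPM (-8.82, SE 1.05, edgeR adjusted p = 0.0265). The inhibitor gene Serpina3n had 16 and 54 counts against 10634 and 11637 (-9.25, SE 0.99, adjusted p = 0.0233). Hamp, which encodes the iron hormone hepcidin, had 1 count in each tumour against 3589 and 5157 (-12.77, SE 0.78, adjusted p = 0.0182). The largest falls by rule were of Serpina1a, Serpina1c and Serpinf2 (-15.17, -14.87 and -14.57), the first and second of which belong to a family of near-identical copies. The gene called higher was the IL-1 receptor antagonist gene Il1rn, at 38.9 and 49.9 CPM against 0.561 CPM (6.29, SE 0.85, adjusted p = 0.0331).

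Of the genes of the IL-6 family and STAT3 pathway, 21 were tested, and the receptor genes Il6ra and Lifr fell. The IL-6 receptor gene Il6ra was at 4.73 and 6.79 CPM in the tumours against 298 CPM (log2 fold change -5.69, SE 0.60, edgeR adjusted p = 0.0226). The LIF receptor gene Lifr was at 34.7 and 26.3 CPM against 2450 CPM (-6.32, SE 0.76, adjusted p = 0.0275). The ligand gene Lif rose, from 0 counts in both normal tables to 323 and 390, at least 64.7-fold at a floor of 3 counts in the mean normal table (adjusted p = 0.0316). These were the calls of this list by edgeR, 1 higher and 2 lower, beside 2.23% and 5.19% of all genes. The list median was 0.63. Before adjustment 5 were higher and 4 lower at p under 0.05, and DESeq2 called 4 higher and 4 lower. Other receptor genes did not pass: Il6st stood at -1.88 (adjusted p = 0.158), Il11ra1 at -2.76 (0.0761) and Osmr at 4.00 (0.0869). Il6 itself had 29 and 47 counts against 1 and 1 (adjusted p = 0.24). Stat3 was at 163 and 108 CPM against 164 CPM (-0.26, SE 0.59, adjusted p = 0.795), a sign that turns without scaling (1.10). The feedback inhibitor gene Socs3 was at 35.1 and 56.9 CPM against 19.2 CPM (1.26, SE 0.65, adjusted p = 0.284).

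In the IL-1, TNF and NF-kB list, 1 of 31 genes was called lower and 0 higher by edgeR, beside 5.19% and 2.23% of all genes. Before adjustment 6 were higher and 2 lower at p under 0.05, and DESeq2 called 5 higher and 2 lower. The co-receptor gene Il1rap fell from 455 CPM to 15.5 and 7.99 CPM (-5.27, SE 0.70, adjusted p = 0.032). Il1r1 stood at 48.2 and 64.3 CPM against 499 CPM without passing (-3.14, SE 0.57, adjusted p = 0.0535). Nfkbiz, whose product IkB-zeta is needed for Lcn2 induction, had 154 and 76 CPM against 29.3 CPM (1.98, SE 0.75, adjusted p = 0.184). Il1b had 101 counts in tumour 1 and 0 in tumour 2, against 6 and 13 in normal liver (adjusted p = 0.757). In that gene tumour 1 was the higher one, as it was for Lcn2 and Saa3. Other genes of these pathways had the opposite order, such as Nfkb2 (51.4 and 110 CPM) and Socs3 (35.1 and 56.9 CPM). A link of the order to the members was not tested.

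Of 18 transcription factor genes of acute-phase promoters, 2 were called lower and 0 higher by edgeR, beside 5.19% and 2.23% of all genes. At an unadjusted p under 0.05, 8 were lower and 0 higher, and DESeq2 called 7 lower and 0 higher. The liver factor genes Onecut1 (-8.24, SE 0.84, adjusted p = 0.0221) and Foxa1 (-3.98, SE 0.67, adjusted p = 0.0466) fell. Without scaling the Foxa1 value was -2.61 and its call was lost (adjusted p = 0.0972). The C/EBP genes moved unequally without passing. Cebpa was at 32.0 and 9.23 CPM against 381 CPM (adjusted p = 0.073), Cebpb at 51.0 and 47.1 against 98.3 CPM (0.281) and Cebpd at 48.7 and 20.4 against 7.72 CPM (0.199). The sign of the Cebpb difference, -1.0 in log2, turns without scaling (0.37).

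**Figure D4:**
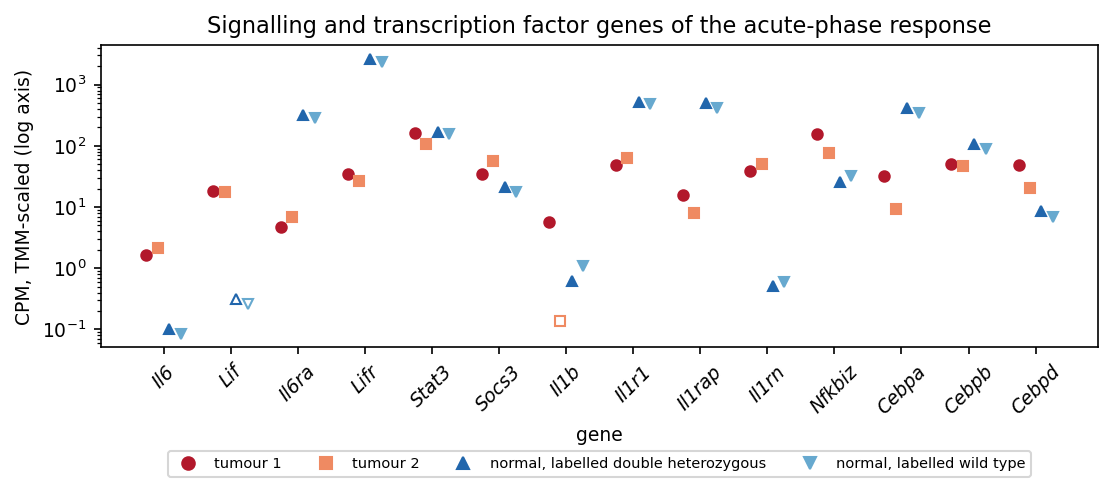
TMM-scaled CPM (log axis) of 14 signalling and transcription factor genes in the 4 libraries; open symbols stand at the floor of 3 counts for libraries at 0. Il6ra, Lifr and Il1rap lie lower and Lif and Il1rn higher in both tumours, and these 5 passed the test.

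Genes known to be induced together with Lcn2 in epithelia gave edgeR calls in both directions. Of 23 tested, 3 were higher and 3 lower, beside 2.23% and 5.19% of all genes. Before adjustment 8 were higher and 5 lower at p under 0.05, and DESeq2 called 8 higher and 4 lower. The chemokine gene Ccl20 rose to 123 and 54.5 CPM from 0.281 CPM (8.27, SE 1.17, edgeR adjusted p = 0.0357). Nos2, the inducible nitric oxide synthase gene, rose to 23.3 and 43.2 CPM from 0.187 CPM (7.42, SE 1.10, adjusted p = 0.0378). The neutrophil chemoattractant gene Cxcl1 rose to 264 and 170 CPM from 5.80 CPM (5.23, SE 0.82, adjusted p = 0.0414). Pigr, the receptor that carries IgA into bile, fell from 3680 CPM to 0.342 and 0.459 CPM (-13.13, SE 1.02, adjusted p = 0.0182). Steap4 (-4.65, SE 0.59) and Lrg1 (-8.57, SE 1.46), both also acute-phase genes, fell, and the Lrg1 call was lost without scaling (adjusted p = 0.0549). The list median was 1.20, or 0.78 when genes with a group at 0 are set to their bound.

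Receptors and partners of the members' proteins had log2 fold changes of both signs. Of 20 tested, 3 were called lower and 0 higher by edgeR, beside 5.19% and 2.23% of all genes. At an unadjusted p under 0.05, 7 were lower and 3 higher, with the same numbers by DESeq2. The asialoglycoprotein receptor genes Asgr1 and Asgr2, which clear desialylated plasma glycoproteins, were near 0 in the tumours, Asgr1 with 2 and 1 counts against 7078 and 7826 and Asgr2 with 1 and 1 against 3405 and 3631 (edgeR adjusted p = 0.0182 for both). Scarb1, the HDL receptor that also binds serum amyloid A, fell from 453 CPM to 12.0 and 26.2 CPM (-4.56, SE 0.72, adjusted p = 0.0421), a call lost without scaling (0.0673). The lipocalin 2 receptor gene Slc22a17 had 38 and 16 counts against 2 and 2 (adjusted p = 0.396). Mmp9, the protease that lipocalin 2 binds, was at 15.7 and 6.43 CPM against 0.374 CPM (adjusted p = 0.106).

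**Figure D5:**
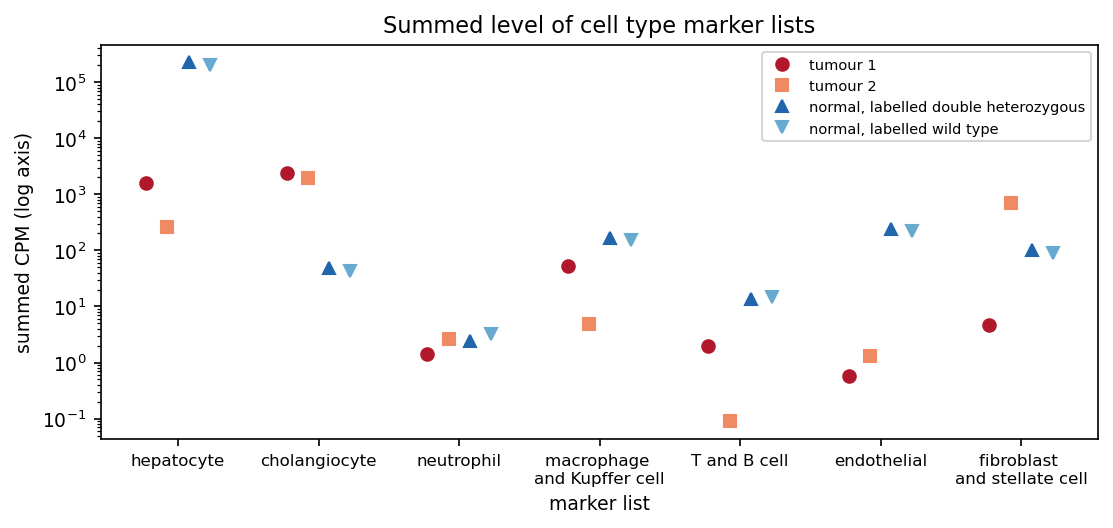
Summed TMM-scaled CPM (log axis) of 7 cell type marker lists in the 4 libraries. Neutrophil sums lie between 1.43 and 3.24 CPM in all libraries, hepatocyte sums are low in both tumours, and the tumours differ most in the fibroblast and stellate cell list (4.68 and 698 CPM).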

How the data were processed

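RNA was sequenced from 2 tumour and 2 normal mouse liver samples. Per the labels' protocols, RNA came from a TRIZOL extraction and libraries from the Illumina TruSeq kit. FastQC, Trimmomatic, TopHat2 2.0.10, HTSeq, DESeq2 and build mm9 are named, with no role or order, in the submitters' processing notes. The authors deposited 1 table a sample with unnormalized counts by gene symbol, with 5 further lines per table that name no gene. These lines (13.6% to 31.5% of each table outside genes, 30.7% to 51.5% not unique, at most 0.107% ambiguous) were left out. Strand use is not given in the sources used here. No other annotated exon overlaps those of the members.

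Tumours were compared with the rounded mean of the normal tables in edgeR 4.0.16 under R 4.3.3 (quasi-likelihood test, TMM, filterByExpr at 10 counts). Genes were called at p under 0.05 after Benjamini-Hochberg adjustment over all genes. The common dispersion was 0.442. SEs are approximate, taken as the size of the log2 fold change over the root of its F statistic. The script was tested on simulated data with large fold changes and a dispersion below that of the data. That test does not show how calls hold at the spread found here. CPM of the 4 tables were scaled together. Comparisons of 1 library with 1 used log2 ratios with a prior count of 2 among genes with at least 10 CPM in either. For libraries at 0, 3 counts served as the floor. Ratio and share intervals are exact binomial and cover counting error only, since reads carry no molecular identifiers. Shared sequence is the percentage of exact 31-mers of the principal coding transcript (GENCODE M21) found in another gene. The members, the gene lists and the use of 1 mean normal library were chosen with earlier results of these data known. Besides the members and a fixed set of regulators, up to 3 called genes per list and direction with the largest changes were named. Alternatives were other scalings, no filter, DESeq2 1.42.0, separate normal tables, each library left out, and paralogs summed.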

Additional observations from a re-analysis of the deposited data

How the results depend on the processing

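No paired analysis was possible because the normal tables carry no replicate number and were counted as 1 library. Counts of calls differed between the alternatives. Main counts were 322 genes higher and 751 lower, 0 members higher and 4 lower, and 5 list genes higher and 46 lower. With no filter on low counts they were 903 and 1383, 1 and 8, and 16 higher list genes. DESeq2 called 1666 and 1743, 2 and 7, and 22 higher list genes. With both normal tables as separate libraries they were 3058 and 3157, 1 and 8, and 34 and 78. Without scaling factors 635 genes were higher and 472 lower, with 11 higher list genes, and the median log2 fold change of all genes shifted by 1.37; under upper quartile scaling it shifted by 0.23. The cause of these differences was not tested.

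The log2 fold change of every member kept its sign in every alternative run except Saa3, which was -0.07 without tumour 1 and 5.54 without tumour 2. It ranged from 4.68 to 8.05 for Lcn2 and from -13.17 to -11.65 for Saa4. The calls of Saa4, Orm1, Apcs and Fgl1 were kept in all alternatives with a test. Leaving out a tumour leaves 1 library against 1 and gives a value with no test, computed with 0.1 CPM added. By that measure Il1b was -3.31 without tumour 1 and 2.57 without tumour 2. Over the libraries left out, Ptx3 ranged from 0 (without tumour 2) to 9.25. Without scaling Stat3 was 1.10 and Cebpb 0.37. With Orm1, Orm2 and Orm3 summed the feature was called (log2 fold change -8.75), where Orm2 alone was not. Depth limits Saa4, Fgl1, Apcs and Orm2 most, whose tumour values rest on 0 to 9 counts per library.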

Other observations

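Other lipocalin family genes were mostly called lower in the tumours. Of 12 tested, 8 were called lower and 0 higher by edgeR, beside 5.19% and 2.23% of all genes. Both at an unadjusted p under 0.05 and by DESeq2, 10 were lower and 0 higher. The 12 include Fabp1, of the related intracellular fatty acid-binding proteins, which is among the 8 (-13.02, edgeR adjusted p = 0.0191). The HDL-associated lipocalin gene Apom was at 0 counts in both tumours against 373 CPM, at least 2450-fold lower at the floor (edgeR adjusted p = 0.0215). Mup21, of the multi-copy major urinary protein family, was at 0 against 969 CPM, at least 6350-fold lower (edgeR adjusted p = 0.022). Its sequence shared with other copies was not measured. Mup3, of the same family, had 8 and 10 counts against 66851 and 121146 (-14.20, SE 1.18, adjusted p = 0.0182). The list median was -10.16, or -9.17 when genes with a group at 0 are set to their bound.

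Among 6 relatives of the serum amyloids, pentraxins and orosomucoids, 3 were tested. Orm3 was the 1 called, in the lower direction, beside 5.19% of all genes. In the acute-phase list, Lbp, the lipopolysaccharide-binding protein gene, and Cd14, its partner receptor gene, were chosen after their values were seen. Lbp had 7224 and 1061 counts in tumours 1 and 2 against 1514 and 1665 (edgeR adjusted p = 0.782). Cd14 had 5677 and 1495 against 27 and 32 (adjusted p = 0.0887). In both, tumour 1 stood above tumour 2, as for Lcn2, Saa3 and Crp, while Orm1 went the other way, with 9 and 70 counts. The chemokine gene Cxcl5, also chosen after its values were seen, had 57548 and 14391 counts against 4 and 3 and did not pass (12.34, SE 2.20, adjusted p = 0.0519).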
